A study of Mus musculus with 12 samples.

Results

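The set described here holds the phase 2 conjugation enzymes of mouse liver, taken as every gene whose symbol begins with Ugt1, Ugt2, Ugt3, Sult, Gsta, Gstk, Gstm, Gsto, Gstp, Gstt or Mgst. Of 22456 genes with an expression value, 63 carried such a symbol and 48 of these averaged 0.5 RPKM or more (read counts scaled to transcript length and sequencing depth) over the 12 libraries. The 48 genes are the members, and they fell into 12 families. Symbol and mean level chose the members, though the set itself was picked with earlier results of these data known. Levels are therefore given as a description and only differences between groups are tested.

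Liver RNA was sequenced from male mice of 4 groups with 3 mice each, all on the BALB/cByJ background. FLD mice carry the Lpin1 fld mutation (Lpin1-/-, fatty liver dystrophy) in every tissue from conception, and their WT littermates served as controls. Lipin 1, the product of Lpin1, is a phosphatidic acid phosphatase and a transcriptional coactivator. The study asked how lipin 1 deficiency alters the liver response to fasting. Mice of each genotype were killed either after a 16-hour fast in single cages (fasted) or after the same fast and 5 hours of chow (refed), so the refed mice had also been fasted. The study gives ages as a range of months for all the mice and not by group.

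Phase 2 enzymes attach a polar group to drugs, hormones, bile pigments and lipid products so that they can leave the cell. UDP-glucuronosyltransferases (Ugt) transfer glucuronic acid from UDP-glucuronic acid in the endoplasmic reticulum, sulfotransferases (Sult) transfer sulfate from PAPS (3'-phosphoadenosine 5'-phosphosulfate) in the cytosol, and glutathione S-transferases (Gst, Mgst) couple glutathione to electrophiles. Hepatocytes express many of these genes at high levels, and several differ between the sexes in rodent liver or respond to the xenobiotic sensors PXR, CAR, AHR and NRF2.

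Of the 15 genes with a matching symbol that stayed below the minimum, 7 belong to the Sult2 family. They are Gstt4, Mgst2, Sult1c1, Sult2a1 to Sult2a6, Sult2b1, Sult3a1, Sult4a1, Sult6b1, Ugt2a1 and Ugt2a2. Gsto2 lay just inside the limit with a mean of 0.501 RPKM and Mgst2 just outside it with 0.315 RPKM. Gsto2 was also the 1 member with a group mean below 0.5 RPKM.

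Lpin1 itself, given first as a check of the labels, lay at 21.96, 0.726 and 1.76 RPKM in fasted WT, at 0.0597, 0.0566 and 0.0368 RPKM in fasted FLD, at 2.92, 0.784 and 2.76 RPKM in refed WT and at 0.00573, 0.0238 and 0.00962 RPKM in refed FLD liver. Every FLD library lay below every WT library. All 10 hepatocyte markers were measured in every library, with sums between 37258 and 85218 RPKM. From the commonest ratios of low values, the depths of the libraries lay between 0.866 and 1.16 times that of the first fasted WT library, and no absolute depth was computed.

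A pair of libraries stood apart from the others of their groups, FLD fasted replicate 1 and WT refed replicate 2. FLD fasted replicate 1 was over 2-fold above both other libraries of its group (on RPKM + 1) for 12 of the 48 members, and WT refed replicate 2 for 5 members, while no other library was so for more than 1. The 5 members were the same in both libraries, Gsta1, Gsta2, Gstm2, Gstm3 and Sult1e1. Lcn2, an acute phase gene chosen after its values were seen, lay at 1034 and 6039 RPKM in these libraries and between 31.6 and 161 RPKM in the other 10. The 10 Kupffer cell markers summed to 999.7 and 930.3 RPKM there and to between 109 and 508 RPKM elsewhere, and the 7 cholangiocyte markers to 453 and 108 RPKM against 25.7 to 60.1 RPKM. The hepatocyte marker sum was lowest in WT refed replicate 2. The fasted WT group was not uniform either. WT fasted replicate 1 was the highest of its group for 19 members and the lowest for 27. FLD fasted replicate 1 was so for 28 and 18. By the 2-fold rule, WT fasted replicate 1 lay above both others for 1 member and below both for 2. The part of these differences in the results was not tested. Without both libraries, 17 of the 20 member calls described here were kept and 3 were lost. Lost were those of Ugt2b37 in the fasted state and of Ugt2a3 and Ugt2b34 in the refed state. The pair was chosen from these same data, and the fit without both libraries was added after the data were seen. Calls gained in that fit, here and below, are a description and no separate evidence.

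**Figure D1:**
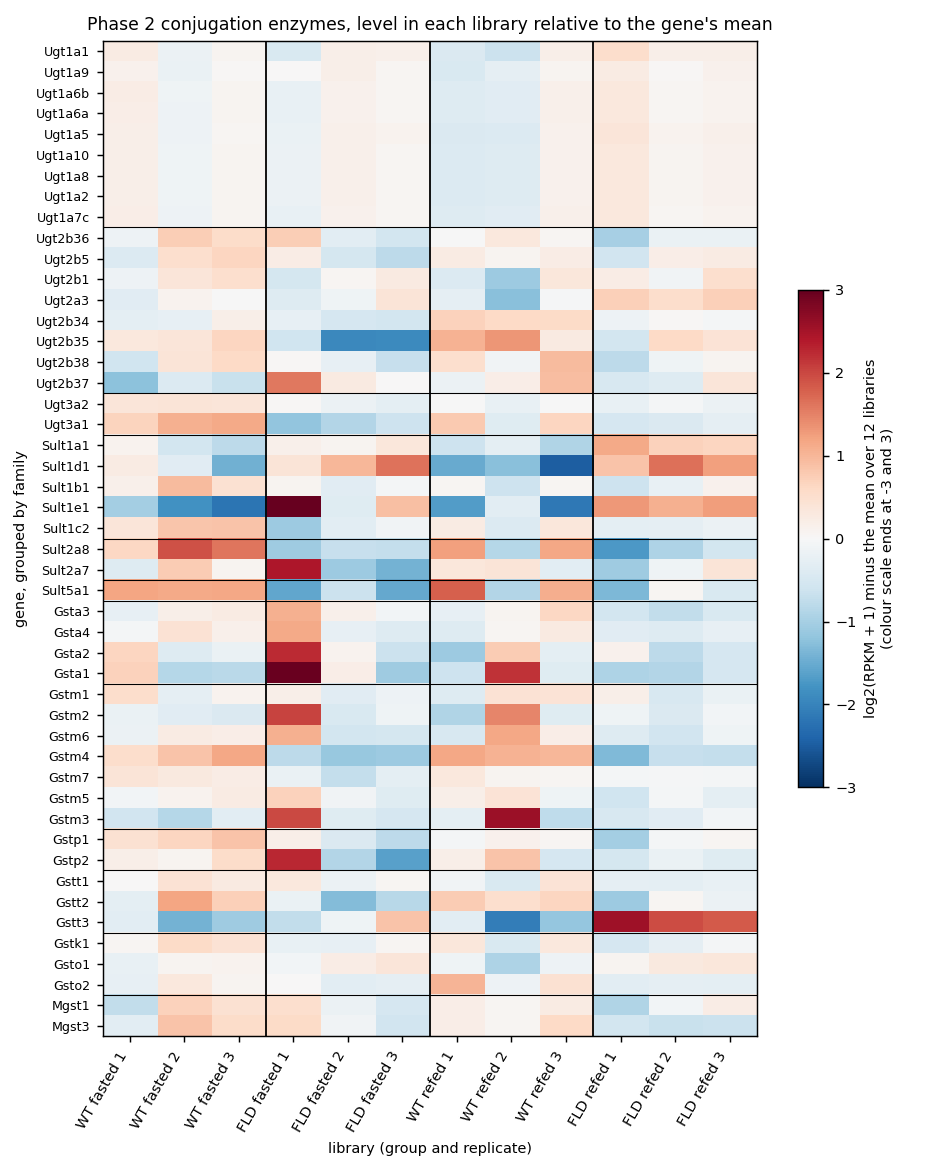
Level of each of the 48 members (rows, grouped by family) in each of the 12 libraries (columns), as log2(RPKM + 1) minus the gene's mean over the libraries, with red above and blue below the mean. The high values of Gsta1, Gstm2 and Gstm3 sit in FLD fasted replicate 1 and WT refed replicate 2, Gstt3 is high in the 3 refed FLD libraries, and Gstm4 is low in all 6 FLD libraries.

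Differences were tested with limma on log2(RPKM + 1) across the 11507 genes that passed the same minimum, and a gene was called altered at a Benjamini-Hochberg adjusted p under 0.05. Between the genotypes, 12 of 48 members (25%) passed in the fasted state, beside 18.8% of all genes. FLD was the higher for 3 of them and the lower for 9, beside 5.63% and 13.2% of all genes. After refeeding 6 members passed (12.5%), beside 6.67% of all genes, with FLD higher for 4 and lower for 2, beside 2.6% and 4.07% of all genes. WT and FLD libraries were fully separate for 13 members fasted and 14 refed, beside 32.9% and 33.9% of all genes. Refeeding raised 2 members and lowered 0 in FLD, beside 20.7% of all genes (17.8% higher, 2.92% lower), and 5 members had an unadjusted p under 0.05, beside 36.1% of all genes. In WT, refeeding altered 0 members by limma, beside 1.72% of all genes, and 6 members had an unadjusted p under 0.05, beside 13.9% of all genes. The genotypes' responses to refeeding differed for 0 members by limma, beside 1.28% of all genes, and 8 had an unadjusted p under 0.05, beside 18.1% of all genes. In all, 16 members were altered in at least 1 comparison and 32 in none. The median log2 fold change of the members was -0.13 in fasted liver and -0.30 in refed liver, FLD over WT, beside -0.14 and -0.07 for all genes. Without both libraries that stood apart, 13 members were altered in the fasted and 9 in the refed state, beside 14.3% and 6.25% of all genes in the same fit.

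The count of 12 in fasted liver fell to 4 without WT fasted replicate 3 and to 7 without FLD fasted replicate 2, and to 5 when the fit held only the 6 fasted libraries. Of the 20 single calls, 8 held in every alternative setting computed, those of Gstm4 and Gstt3 (both comparisons of each), Sult1d1 and Sult1a1 in refed liver, and Ugt2b35 and Ugt3a1 in fasted liver. Gstm4 and Sult1d1 were altered in both states, which is 16.7% of the fasted and 33.3% of the refed calls. The matching share of all genes is not given. Without both libraries that stood apart, Sult1e1, Sult2a8, Sult5a1 and Ugt3a1 also passed in both states.

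**Figure D2:**
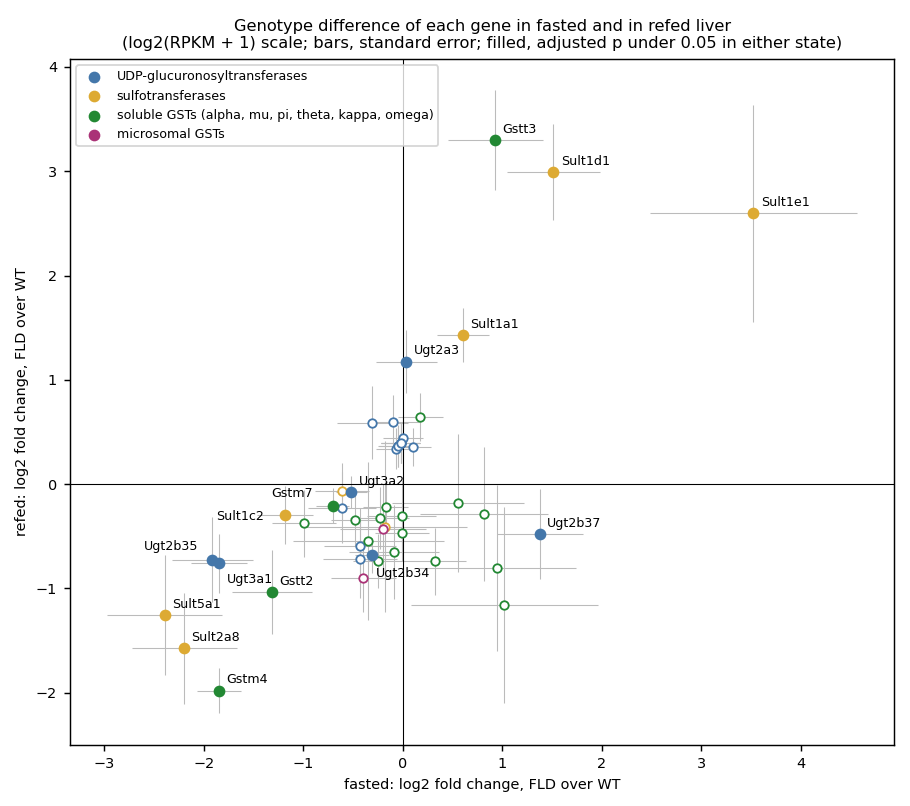
Log2 fold change (FLD over WT, log2(RPKM + 1) scale) of each of the 48 members in fasted liver (x axis) and refed liver (y axis), with standard errors as bars and filled points for members past the threshold in either state. Gstm4 lies far below 0 on both axes, Sult1d1 and Sult1e1 lie above 0 on both, and Gstt3 lies at 0.93 in fasted and 3.30 in refed liver.

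The Ugt1 family is 1 locus at chr1:88055388-88220002 (GRCm38, plus strand) in which each enzyme has a first exon of its own, which codes for the part that binds the substrate, joined to a set of exons that all the enzymes share. In all, 3 whole exons were common to all 9 annotated genes, the first of them at chr1:88215044-88215175. The joins below show why the 9 rows of the expression table cannot be read as 9 measurements. Each line is from a GENCODE M21 transcript (GRCm38), with the last 24 bases of the own first exon in lower case and the first 24 bases of the shared exon in capitals.
Ugt1a1: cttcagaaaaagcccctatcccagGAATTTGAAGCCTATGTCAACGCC
Ugt1a9: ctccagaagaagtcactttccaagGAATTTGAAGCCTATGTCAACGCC
Ugt1a6a: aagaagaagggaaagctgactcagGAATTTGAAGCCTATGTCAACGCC
Ugt1a5: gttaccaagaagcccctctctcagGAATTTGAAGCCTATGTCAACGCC

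The shared part is the same in all 9 genes. Windows of 69 bases, the read length, that also occur in another gene made up between 37.4% and 76.6% of each gene's longest transcript. Across the 12 libraries the rows correlated pairwise at 0.83 or more (median 0.990, 36 pairs), which describes shared reads. Ugt1a1, the bilirubin glucuronidating enzyme and the highest row, lay at 363, 272 and 321 RPKM in fasted WT, 223, 343 and 339 RPKM in fasted FLD, 225, 194 and 343 RPKM in refed WT and 442, 342 and 345 RPKM in refed FLD liver. The genotypes overlapped in both states, in the refed one by 343 against 342 RPKM, and 0 of the 9 rows was altered in any comparison (limma).

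The own first exons were read from the difference in reads between a row and that of Ugt1a2, spread over the own first exon. The Ugt1a2 row holds its own first exon as well, so the difference also subtracts any reads there. How many reads the Ugt1a2 first exon carries was not shown. This measure was added after the data were seen and is a description without a test. For the Ugt1a9 first exon (chr1:88070800-88071678) it gave 38.8, 22.7 and 33.3 RPKM in fasted WT and 122, 66.0 and 48.9 RPKM in fasted FLD liver. All fasted FLD libraries lay above all fasted WT libraries, with the highest value in FLD fasted replicate 1. In refed liver it gave 27.0, 79.8 and 32.8 RPKM in WT and 32.0, 38.6 and 57.0 RPKM in FLD, which overlapped, and the high WT value was in replicate 2. For the Ugt1a1 first exon (chr1:88211959-88212871) it gave 150, 66.2 and 250 RPKM in refed WT and 414, 272 and 260 RPKM in refed FLD liver, without overlap, and 288, 179 and 219 against 73.8, 243 and 268 RPKM in fasted liver, with overlap. The lowest values of each were those of the libraries that stood apart. The Ugt1a5 first exon gave 6.81, 4.20 and 8.49 RPKM in refed WT and 41.0, 23.6 and 23.6 RPKM in refed FLD liver, without overlap. The lengths used were those of GENCODE M21 and not of the Ensembl 84 models the authors counted, so values as low as those of Ugt1a5 in refed WT may hold no more than a difference in length.

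**Figure D3:**
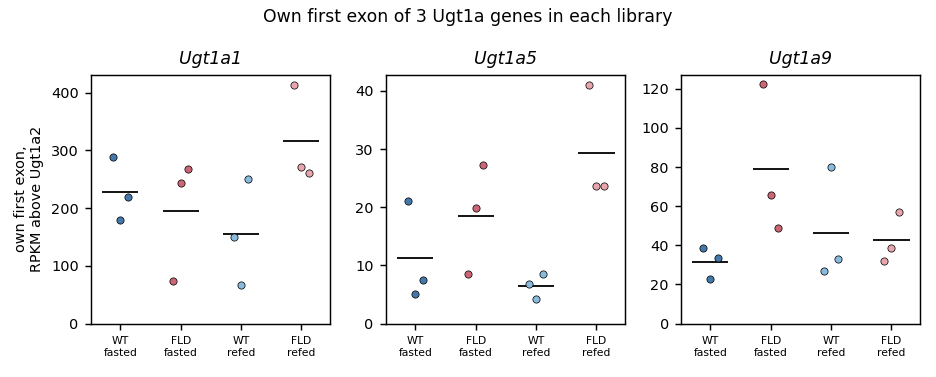
Level of the own first exon of 3 Ugt1a genes in each library, as RPKM above the row of Ugt1a2 (y axis, from 0), by group, with points for libraries and horizontal lines for group means. The Ugt1a9 exon is higher in the 3 fasted FLD libraries than in fasted WT, and the Ugt1a1 and Ugt1a5 exons are higher in the 3 refed FLD libraries than in refed WT.

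Junction reads gave another view of the same first exons. In fasted liver, reads that join the Ugt1a9 first exon straight to the shared exon numbered 359, 202 and 309 in WT and 1378, 682 and 524 in FLD, in the order of the deposited lists, which does not say which mouse is which. Set against them, reads that include an exon further on in the locus (chr1:88107686-88107799) gave an inclusion of 51.7%, 55.0% and 48.6% in WT and 7.61%, 24.7% and 27.5% in FLD (log2 -2.30, SE 0.80, adjusted p = 0.0902). The lists did not overlap, but the difference did not pass the threshold. In other events of the locus the end of this exon is itself joined straight to the shared exon. The including reads may thus come from transcripts of another enzyme, and the percentage does not measure inclusion within Ugt1a9 transcripts. In refed liver the same junction had 291, 909 and 312 reads in WT and 363, 382 and 611 in FLD, with an adjusted p of 0.855.

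The Ugt2 family had 8 members, all on chromosome 5 between 86889767 and 87424203, and these enzymes act on steroids, bile acids, fatty acids and drugs. Fasted FLD liver had lower Ugt2b35 and higher Ugt2b37, and refed FLD liver had higher Ugt2a3 and lower Ugt2b34. The highest member, Ugt2b36, lay at 346, 644 and 565 RPKM in fasted WT, 638, 309 and 261 RPKM in fasted FLD, 377, 479 and 400 RPKM in refed WT and 190, 331 and 335 RPKM in refed FLD liver. In the refed state all FLD values were below all WT values, yet it was not altered in either state (adjusted p = 0.45 fasted, 0.37 refed).

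Ugt2b35 showed the largest loss of the family in the fasted state. It lay at 65.6, 67.2 and 81.8 RPKM in fasted WT and at 34.2, 13.0 and 13.2 RPKM in fasted FLD liver. The FLD values were all below the WT values, with the highest in the replicate 1 that stood apart, and the log2 fold change was -1.92 (SE 0.41, adjusted p = 0.0087). After refeeding it stood at 109, 132 and 62.9 RPKM in WT and 35.3, 79.6 and 70.1 RPKM in FLD, which overlapped. In FLD liver every refed value was above every fasted value (log2 1.63, SE 0.41, adjusted p = 0.0171). The refeeding call was lost without any 1 of FLD fasted replicates 2 and 3 and FLD refed replicates 2 and 3, with adjusted p between 0.0525 and 0.0761, and stood at 0.00578 without both libraries that stood apart.

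Ugt2b37 is a low member, at 0.243, 1.18 and 0.836 RPKM in fasted WT and 7.65, 2.48 and 1.91 RPKM in fasted FLD liver. The fasted groups did not overlap (log2 1.38, SE 0.43, adjusted p = 0.0438). In refed liver it lay at 1.55, 2.31 and 4.52 RPKM in WT and 1.08, 1.21 and 2.73 RPKM in FLD, with overlap. The fasted call was lost in 10 of 18 alternatives, with adjusted p up to 0.147. Among these were the fits without both libraries that stood apart and without WT fasted replicate 1 or 3, FLD fasted replicate 1 or 2, or FLD refed replicate 1 or 2. About 8.32% of its read-length windows also occur in another gene, mostly Ugt2b5.

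Ugt2a3 lay at 123, 61.9 and 146 RPKM in refed WT and 246, 215 and 246 RPKM in refed FLD liver, and every FLD value was the higher (log2 1.18, SE 0.30, adjusted p = 0.0423). In fasted liver it overlapped at 119, 162 and 149 RPKM in WT and 115, 138 and 196 RPKM in FLD. Ugt2b34 lay at 198, 184 and 180 RPKM in refed WT and 109, 124 and 116 RPKM in refed FLD liver, and every FLD value was the lower (log2 -0.68, SE 0.17, adjusted p = 0.0381). Its fasted values were 98.7, 103 and 136 RPKM in WT and 102, 85.6 and 82.5 RPKM in FLD. The refed call of Ugt2a3 was lost in 12 of 19 alternatives (adjusted p up to 0.128) and that of Ugt2b34 in 10 of 19 (up to 0.152). It is not known whether the replicate numbers pair the refed mice. With the replicate block neither call passed the threshold (limma, adjusted p = 0.0506 for Ugt2a3 and 0.0749 for Ugt2b34). Both were lost without both libraries that stood apart (log2 0.81, adjusted p = 0.0590, and log2 -0.70, adjusted p = 0.0598) and without any 1 refed library other than, for Ugt2a3, WT refed replicate 3. Leaving out FLD fasted replicate 2 also ended both calls, and leaving out WT fasted replicate 3 ended that of Ugt2a3. The other members of the family, Ugt2b1, Ugt2b5 and Ugt2b38, were not altered, and Ugt2b5 and Ugt2b38 share 32.3% and 29.6% of their read-length windows with another gene.

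Both members of the Ugt3 family, which use sugars other than glucuronic acid, were lower in fasted FLD liver. Ugt3a1 (chr15:9276888-9315032) lay at 63.9, 85.6 and 89.1 RPKM in fasted WT and 17.2, 21.3 and 25.8 RPKM in fasted FLD liver (log2 -1.85, SE 0.28, adjusted p = 0.0016). Its refed values were 69.8, 31.1 and 63.0 RPKM in WT and 27.8, 29.5 and 32.9 RPKM in FLD. The fasted groups lay well apart, while the refed groups overlapped through WT refed replicate 2, and the refed difference did not pass the threshold (log2 -0.76, adjusted p = 0.13). Without both libraries that stood apart the refed difference was -1.12 on the log2 scale with an adjusted p of 0.0129.

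Ugt3a2 (chr15:9335550-9370955), the higher of the pair, lay at 200.2, 203 and 201 RPKM in fasted WT and 158, 137 and 127 RPKM in fasted FLD liver. The WT values were nearly alike and all above the FLD values (log2 -0.52, SE 0.15, adjusted p = 0.0362). Refed values were 154, 133 and 155 RPKM in WT and 133, 148 and 137 RPKM in FLD, with overlap. The fasted call was lost in 12 of 19 alternatives, with adjusted p up to 0.258 under median-ratio rescaling. It was lost without any 1 library except FLD fasted replicate 1, WT refed replicate 2 and FLD refed replicate 1.

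Sulfotransferases moved in both directions. Sult1d1, which sulfates catecholamines and other phenols, and Sult1e1, the estrogen sulfotransferase, were higher in fasted FLD liver, where Sult1c2, Sult2a8 and Sult5a1 were lower. In refed FLD liver Sult1d1 and Sult1a1, a phenol sulfotransferase, were higher. Sult1d1 lay at 271, 180 and 83.2 RPKM in fasted WT, 298, 456 and 703 RPKM in fasted FLD, 78.5, 94.2 and 40.02 RPKM in refed WT and 412, 710 and 532 RPKM in refed FLD liver. The FLD values were above the WT values in both states. The log2 fold change was 1.51 (SE 0.46, adjusted p = 0.0415) fasted and 2.99 (SE 0.46, adjusted p = 0.00537) refed, or 7.96-fold. The refed call held in all 19 alternatives. The fasted call was lost in 10, with adjusted p up to 0.166, among them those without WT fasted replicate 2 or 3, FLD fasted replicate 2 or 3, WT refed replicate 1 or FLD refed replicate 2 or 3, and it held at 0.0314 without both libraries that stood apart.

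Sult1a1, the highest member of its family, lay at 326, 205 and 176 RPKM in fasted WT, 335, 323 and 382 RPKM in fasted FLD, 197, 248 and 162 RPKM in refed WT and 671, 489 and 478 RPKM in refed FLD liver. In the refed state the lowest FLD value was well above the highest WT value (log2 1.43, SE 0.26, adjusted p = 0.0101). In the fasted state the groups overlapped (log2 0.60, adjusted p = 0.13). Within FLD every refed value was above every fasted value, without passing the threshold (adjusted p = 0.10).

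Sult1e1 lay at 1.72, 0.561 and 0.193 RPKM in fasted WT and 174, 3.27 and 9.25 RPKM in fasted FLD liver, and at 0.705, 3.37 and 0.229 RPKM in refed WT and 12.6, 10.5 and 12.0 RPKM in refed FLD liver. The FLD libraries were above the WT libraries in both states, and the value of 174 RPKM came from FLD fasted replicate 1. The fasted log2 fold change was 3.52 (SE 1.04, adjusted p = 0.0360) and the refed one 2.60 (SE 1.04, adjusted p = 0.16). Without both libraries that stood apart the fold changes were 1.95 (adjusted p = 0.0126) and 3.13 (adjusted p = 0.00314). Sult1e1 was among the members that set those libraries apart, so these values are a description. The fasted call was lost in 8 of 19 alternatives (adjusted p up to 0.119), among them those without any 1 fasted WT library, without WT refed replicate 1 and without FLD refed replicate 2 or 3.

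Sult2a8, a hydroxysteroid and bile acid sulfotransferase, and Sult5a1 fell together in fasted FLD liver. Sult2a8 lay at 368, 904 and 731 RPKM in fasted WT, 114, 148 and 147 RPKM in fasted FLD, 562, 133 and 538 RPKM in refed WT and 72.5, 125 and 165 RPKM in refed FLD liver. Sult5a1 lay at 39.5, 38.3 and 38.7 RPKM, 5.10, 10.5 and 5.20 RPKM, 61.5, 8.75 and 37.2 RPKM, and 6.00, 17.6 and 12.1 RPKM in the same order of groups. For both genes the fasted groups were apart, and in refed liver WT replicate 2 lay among the FLD values. The fasted log2 fold changes were -2.20 (SE 0.53, adjusted p = 0.0152) and -2.40 (SE 0.58, adjusted p = 0.0150), and the refed ones -1.58 (adjusted p = 0.10) and -1.26 (adjusted p = 0.22). Without both libraries that stood apart the refed fold changes were -2.26 (adjusted p = 0.0130) and -2.03 (adjusted p = 0.0188), and the fasted ones -2.07 (adjusted p = 0.00887) and -2.24 (adjusted p = 0.00625). Each fasted call was lost without WT fasted replicate 3 or without FLD fasted replicate 1, with adjusted p between 0.0508 and 0.0626.

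Sult1c2 lay at 2.70, 4.15 and 4.21 RPKM in fasted WT and 0.350, 1.33 and 1.68 RPKM in fasted FLD liver, with no overlap (log2 -1.19, SE 0.28, adjusted p = 0.0141). In refed liver it lay at 2.38, 1.15 and 2.64 RPKM in WT and 1.36, 1.39 and 1.54 RPKM in FLD, with overlap. The fasted call was lost without WT fasted replicate 3 and in the fit of the 6 fasted libraries (adjusted p 0.0516 and 0.0623). Sult1b1, a thyroid hormone sulfotransferase, was not altered, and Sult2a7 reached 18.2 RPKM in FLD fasted replicate 1 against at most 5.01 RPKM in the 10 libraries that did not stand apart.

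Of the mu class glutathione transferases, which lie side by side on chromosome 3, Gstm4 and Gstm7 were lower in FLD liver. Gstm4 (chr3:108040408-108044894, minus strand) was altered in both states. It lay at 37.0, 46.3 and 58.1 RPKM in fasted WT, 14.3, 10.9 and 11.4 RPKM in fasted FLD, 58.1, 53.4 and 51.5 RPKM in refed WT and 9.51, 15.3 and 15.1 RPKM in refed FLD liver. All 6 FLD values were below all 6 WT values, whatever the feeding state. The log2 fold change was -1.85 (SE 0.22, adjusted p = 5.2e-04) fasted and -1.98 (SE 0.22, adjusted p = 0.00109) refed, and refeeding altered it in neither genotype (adjusted p = 0.69 in WT, 0.79 in FLD).

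Gstm7 lay at 37.0, 34.9 and 33.0 RPKM in fasted WT, 24.5, 16.6 and 22.8 RPKM in fasted FLD, 35.0, 29.9 and 29.3 RPKM in refed WT and 26.8, 27.3 and 26.9 RPKM in refed FLD liver. The FLD values were below the WT values in both states, and the difference passed the threshold in fasted liver (log2 -0.71, SE 0.17, adjusted p = 0.0143) but not in refed liver (log2 -0.21, adjusted p = 0.50). The fasted call was lost without FLD fasted replicate 2, in the fit of the 6 fasted libraries and under median-ratio rescaling (adjusted p 0.0538 to 0.0937).

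The promoters of both genes are shown because they are the members of the cluster that differed. For each gene 1 of its 2 listed starts is given. The windows cover 250 bases before to 50 bases after the start (RefSeq, GRCm38.p6), and capitals mark the antioxidant response element core TGACNNNGC, the xenobiotic response element core GCGTG and the STAT5 site TTCNNNGAA, each searched on both strands.
Gstm4, chr3:108044807-108045106, minus strand: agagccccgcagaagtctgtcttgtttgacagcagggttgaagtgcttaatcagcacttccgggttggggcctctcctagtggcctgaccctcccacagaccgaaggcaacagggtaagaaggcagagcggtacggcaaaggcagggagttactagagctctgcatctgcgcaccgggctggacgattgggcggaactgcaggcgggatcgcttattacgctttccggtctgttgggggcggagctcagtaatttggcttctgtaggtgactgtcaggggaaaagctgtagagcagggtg
Gstm7, chr3:107931565-107931864, minus strand: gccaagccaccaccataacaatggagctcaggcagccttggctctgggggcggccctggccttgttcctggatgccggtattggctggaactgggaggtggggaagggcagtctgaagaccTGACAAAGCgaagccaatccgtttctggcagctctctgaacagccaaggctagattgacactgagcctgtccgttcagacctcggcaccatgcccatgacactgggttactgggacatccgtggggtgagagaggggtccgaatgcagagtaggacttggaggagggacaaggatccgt

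The Gstm7 window shown holds 1 antioxidant response element core, and the window of its other listed start (chr3:107931768-107932067) holds none of the 3 motifs. Neither window of Gstm4 holds any of them. Promoters were found for 43 of the 48 members (53 windows). The antioxidant motif occurred in 4 of them (7.55%) and in 12.4% of all 32851 promoters, GCGTG in 11 (20.8%) and in 32.4%, and TTCNNNGAA in 4 (7.55%) and in 8.30%. Each share among the members was below that of all promoters.

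Gstm1, the highest member of the class, lay at 824, 477 and 616 RPKM in fasted WT, 640, 453 and 512 RPKM in fasted FLD, 438, 771 and 758 RPKM in refed WT and 642, 409 and 496 RPKM in refed FLD liver. These groups overlapped in both states. Gstm2, Gstm3 and Gstm6 followed the libraries that stood apart. Gstm3 lay at 26.2 and 39.9 RPKM there and between 2.81 and 5.498 RPKM in the other 10 libraries, Gstm2 at 469 and 318 RPKM against 61.1 to 107 RPKM, and Gstm6 at 106 and 113 RPKM against 33.4 to 59.7 RPKM. None of these was altered, with or without both libraries. Gstm3 shares 23.3% of its read-length windows with another gene.

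The alpha class, which also reduces lipid peroxides, had no altered member. Gsta3 lay at 551, 733 and 774 RPKM in fasted WT, 1362, 720 and 621 RPKM in fasted FLD, 552, 690 and 1009 RPKM in refed WT and 443, 390 and 475 RPKM in refed FLD liver. The refed FLD values were below all other libraries, and refed over fasted FLD gave a log2 fold change of -0.96 (SE 0.32, adjusted p = 0.052), with the highest fasted value in FLD fasted replicate 1. It was -0.62 without both libraries that stood apart (adjusted p = 0.18). Gsta1 lay at 42.9 and 24.2 RPKM in the libraries that stood apart and between 1.70 and 8.13 RPKM elsewhere, and 87.1% of its read-length windows occur in another gene, so its level is uncertain.

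Gstp1, the main pi class enzyme of male mouse liver, lay at 1640, 1876 and 2161 RPKM in fasted WT, 1353, 894 and 696 RPKM in fasted FLD, 1145, 1307 and 1249 RPKM in refed WT and 593, 1150 and 1250 RPKM in refed FLD liver. All fasted FLD values were below all fasted WT values, with an adjusted p of 0.0538 (log2 -0.99, SE 0.32). Without both libraries that stood apart the difference passed the threshold (log2 -1.25, adjusted p = 0.0355), as did that of Gstp2 (log2 -1.52, adjusted p = 0.0088). Gstp2 lay at 44.9 RPKM in FLD fasted replicate 1 and at 4.17 and 2.10 RPKM in the other fasted FLD libraries. With all libraries it was not altered (limma, log2 -0.35, adjusted p = 0.79). The libraries were left out after such values were seen, so neither call is separate evidence. Gstp1 and Gstp2 share 58.8% and 69.3% of their read-length windows with another gene, mostly each other, and cannot be told apart there.

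Gstt3, of the theta class (chr10:75774115-75781414, minus strand), was higher in refed FLD liver. It lay at 37.6, 17.1 and 21.9 RPKM in fasted WT, 27.9, 43.3 and 85.5 RPKM in fasted FLD, 37.6, 10.5 and 20.7 RPKM in refed WT and 280, 186 and 172 RPKM in refed FLD liver. The 3 refed FLD values were far above those of the other 9 libraries, while the fasted groups overlapped. The log2 fold change was 3.30 (SE 0.48, adjusted p = 0.00382) between the genotypes in refed liver, or 9.83-fold, and 2.12 (SE 0.48, adjusted p = 0.0110) between refed and fasted FLD liver. The difference between the genotypes' responses to refeeding was 2.37 on the log2 scale and did not pass the threshold (SE 0.68, adjusted p = 0.11). Both calls held in all 19 alternatives. The fold changes were 2.85 (adjusted p = 0.00449) and 1.76 (adjusted p = 0.0224) without both libraries that stood apart.

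Gstt2, also on chromosome 10, went the other way, at 67.4, 190 and 136 RPKM in fasted WT, 71.3, 32.9 and 46.1 RPKM in fasted FLD, 140, 117 and 129 RPKM in refed WT and 38.1, 86.5 and 72.3 RPKM in refed FLD liver. The fasted groups overlapped by 1 library of each, and the refed groups did not. The call was made in fasted liver (log2 -1.32, SE 0.40, adjusted p = 0.0413) and not in refed liver (log2 -1.04, SE 0.40, adjusted p = 0.15). It was lost in 11 of 19 alternatives, with adjusted p up to 0.139, among them those without WT fasted replicate 2 or 3, FLD fasted replicate 2 or 3, WT refed replicate 1 or 3, or FLD refed replicate 3. Gstt1, the highest of the class, lay at 142, 191 and 169 RPKM in fasted WT, 175, 124 and 147 RPKM in fasted FLD, 131, 102 and 186 RPKM in refed WT and 115, 114 and 120 RPKM in refed FLD liver, and was not altered.

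The promoter of Gstt3 is shown with that of Sult1d1, the members whose refed difference was over 2 on the log2 scale and was called in all alternatives.
Gstt3, chr10:75781365-75781664, minus strand: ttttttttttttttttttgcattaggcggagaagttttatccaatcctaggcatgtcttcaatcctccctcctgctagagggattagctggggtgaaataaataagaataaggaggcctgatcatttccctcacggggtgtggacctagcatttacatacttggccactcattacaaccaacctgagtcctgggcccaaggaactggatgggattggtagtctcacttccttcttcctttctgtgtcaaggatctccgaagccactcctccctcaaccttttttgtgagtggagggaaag
Sult1d1, chr5:87568957-87569256, minus strand: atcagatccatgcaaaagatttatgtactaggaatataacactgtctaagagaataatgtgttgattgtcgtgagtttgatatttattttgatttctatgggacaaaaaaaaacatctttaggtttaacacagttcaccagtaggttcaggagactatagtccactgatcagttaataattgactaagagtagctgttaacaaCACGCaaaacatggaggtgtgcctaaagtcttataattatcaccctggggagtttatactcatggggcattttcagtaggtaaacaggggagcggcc

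The Sult1d1 window holds 1 copy of the xenobiotic response element core on the opposite strand, marked in capitals, and that of Gstt3 holds none of the 3 motifs.

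**Figure D4:**
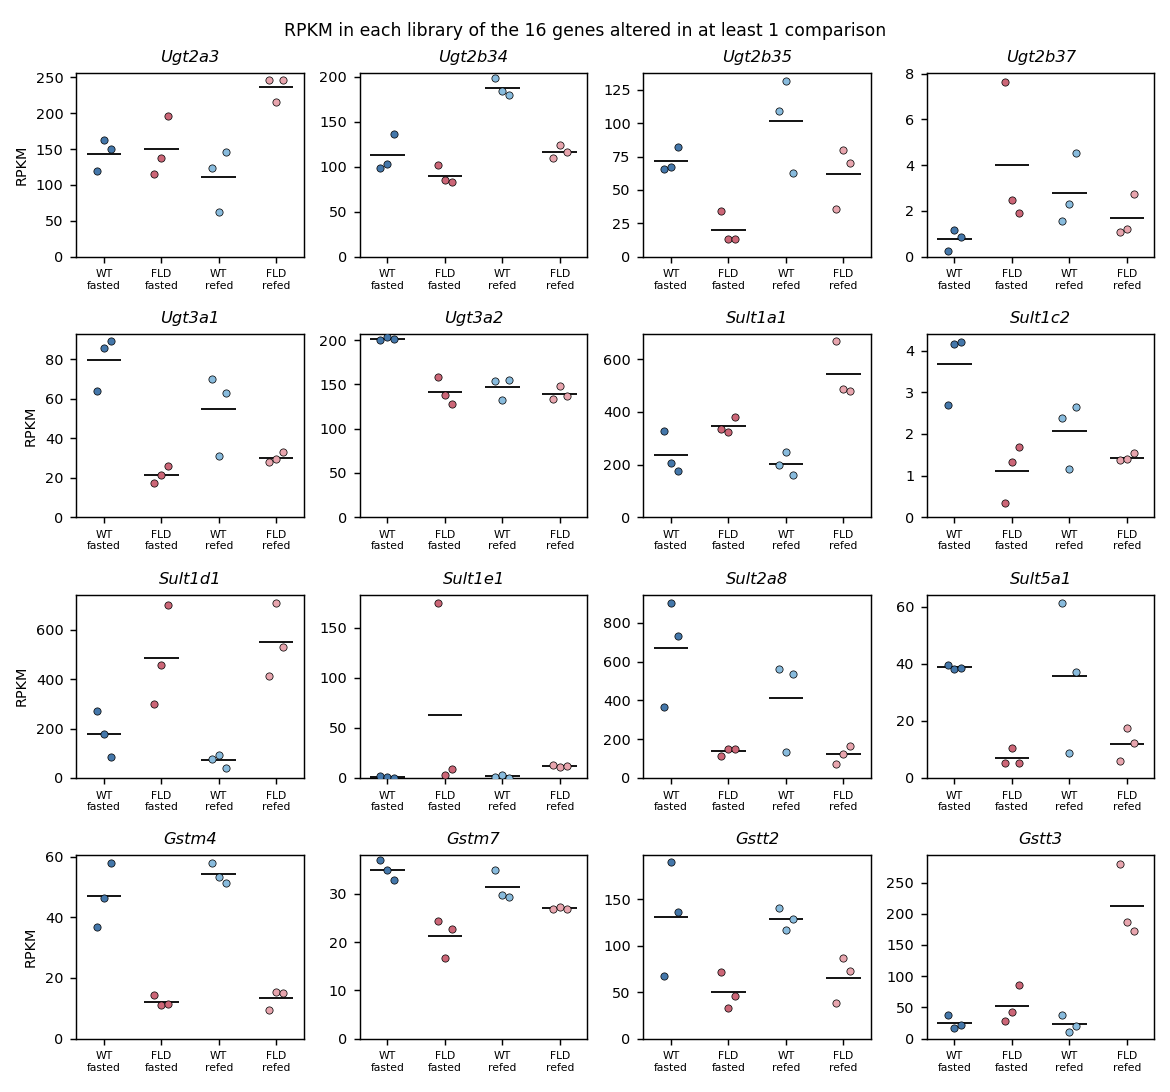
RPKM (y axis, from 0) in each library of the 16 members altered in at least 1 comparison, by group, with points for libraries and horizontal lines for group means. Gstm4 is lower in all FLD libraries than in all WT libraries, Gstt3 is raised in the refed FLD group, and the single high Sult1e1 point is FLD fasted replicate 1.

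Of the remaining glutathione transferases, Mgst1, a microsomal enzyme that also acts as a peroxidase, was the highest member of the whole set. It lay at 1783, 4793 and 4071 RPKM in fasted WT, 4220, 2610 and 2088 RPKM in fasted FLD, 3434, 3105 and 3542 RPKM in refed WT and 1583, 2810 and 3469 RPKM in refed FLD liver, with overlap in both states. Gstk1, the kappa class enzyme of mitochondria and peroxisomes, lay at 119, 171 and 155 RPKM, 98.2, 96.9 and 120 RPKM, 146, 83.9 and 144 RPKM, and 81.5, 95.0 and 110 RPKM in the same order. Neither was altered, nor were Gsto1 and Mgst3. Gsto2, the lowest member, was not altered. It averaged 0.510 RPKM in fasted WT, 0.263 RPKM in fasted FLD, 1.06 RPKM in refed WT and 0.171 RPKM in refed FLD liver. It thus passed the minimum through the refed WT group. Leaving out both libraries that stood apart removed its lowest refed WT value (0.295 RPKM). The refed difference in that fit (limma, log2 -1.03, adjusted p = 0.0180) is therefore not read as a result.

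Genes around the supply and use of the conjugating groups were read next. Counts in this and the following lists are to be set beside the shares of all genes called. In fasted FLD liver 5.63% were higher and 13.2% lower, and in refed FLD liver 2.6% and 4.07%. Refeeding altered 1.72% in WT, and in FLD it raised 17.8% and lowered 2.92%. The genotypes' responses differed for 1.28%. No list was tested as a set. Of 8 genes listed around UDP-glucuronic acid, 3 fell in fasted FLD liver. These were the phosphoglucomutase gene Pgm2 (log2 -1.20), the nucleotide sugar carrier Slc35d1 (-1.04) and Ugp2, which makes UDP-glucose (-0.85, adjusted p = 0.034, 0.044 and 0.027). Refeeding raised 2 of the 8 in WT, Slc35b1 (log2 1.65) and Uxs1 (0.87), and 0 in FLD (limma, 4 at an unadjusted p under 0.05). Uxs1 uses UDP-glucuronic acid and does not make it, so these rises do not show a greater supply.

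For PAPS, 1 of 8 genes tested fell and 1 rose in refed FLD liver. Papss1, a PAPS synthase, lay at 3.35, 2.14 and 3.08 RPKM in fasted WT, 1.66, 2.19 and 1.40 RPKM in fasted FLD, 10.3, 6.94 and 10.6 RPKM in refed WT and 1.86, 2.68 and 2.47 RPKM in refed FLD liver. It rose with refeeding in WT (log2 1.41, SE 0.22, adjusted p = 0.012) and was lower in refed FLD than in refed WT (log2 -1.61, SE 0.22, adjusted p = 0.00237). Impad1, a phosphatase of the sulfate pathway, was higher in refed FLD liver (log2 1.10, adjusted p = 0.039).

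For glutathione, 6 of 15 genes fell and 1 rose in fasted FLD liver, beside 13.2% and 5.63% of all genes. Their median log2 fold change was -0.61, beside -0.14 for all genes. Gclc, the catalytic subunit of the rate-limiting enzyme of glutathione synthesis, lay at 70.8, 54.7 and 89.4 RPKM in fasted WT and 18.2, 29.8 and 17.5 RPKM in fasted FLD liver (log2 -1.68, SE 0.30, adjusted p = 0.00333). Chac2, a glutathione-degrading enzyme, fell by 2.47 on the log2 scale in fasted FLD liver and rose by 2.12 when FLD mice were refed. The difference between the genotypes' responses to refeeding for Chac2 passed the threshold (log2 2.22, adjusted p = 0.032). Cth, which makes cysteine from cystathionine, lay at 492, 324 and 299 RPKM in fasted WT and 2450, 1518 and 1772 RPKM in fasted FLD liver, and its log2 fold change was 2.37 fasted and 3.01 refed. In FLD liver refeeding raised 5 of the 15 genes and lowered 1, Chac1, beside 17.8% and 2.92% of all genes.

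Of the 19 regulators tested, 5 fell and 1 rose in fasted FLD liver, beside 13.2% and 5.63% of all genes. In refed liver 0 were altered (limma, 3 at an unadjusted p under 0.05), beside 6.67% of all genes. Nfe2l2, which encodes NRF2, lay at 24.2, 18.2 and 28.1 RPKM in fasted WT, 6.50, 6.21 and 4.38 RPKM in fasted FLD, 25.1, 59.2 and 23.9 RPKM in refed WT and 17.8, 34.3 and 22.8 RPKM in refed FLD liver. The fasted difference was -1.87 on the log2 scale (SE 0.35, adjusted p = 0.00432). Nr1h4, the bile acid receptor FXR, fell by 1.45 on the log2 scale in fasted FLD liver, and its response to refeeding differed between the genotypes (log2 2.04, adjusted p = 0.00794). Mafk, a partner of NRF2, rose by 1.40. Of 11 NRF2 targets outside the set, 1 fell in fasted FLD liver (Aox1, log2 -1.35), and in refed FLD liver Cbr1 rose (1.61) and Aox1 (-1.73) and Akr1c13 (-1.25) fell.

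Of 10 transporters of conjugates tested, Slco1b2 (log2 -1.51) and Abcb11, the bile salt pump (-1.22), fell in fasted FLD liver, beside 13.2% of all genes. Slco1a4 rose in refed FLD liver (2.69), beside 2.6% of all genes. None of the 5 hydrolases listed (Gusb, Arsa, Arsb, Naglu and Ces1d) was altered in any comparison by limma, with 2 at an unadjusted p under 0.05 in each genotype comparison. Not all of these hydrolases act on phase 2 conjugates. Enzymes of other conjugation reactions, acetylation, methylation and amino acid conjugation among them, made up a list of 14 genes. In fasted FLD liver 8 of the 14 were down and 0 up, beside 13.2% and 5.63% of all genes. Nat2, an arylamine acetyltransferase (log2 -1.75), and Glyat, a glycine acyltransferase (-1.64), were among them. In refed FLD liver Acsm1 fell (log2 -0.995) and Gnmt rose (1.19). The responses of Nat2 (log2 1.97) and Baat (1.62), the bile acid conjugating enzyme, to refeeding differed between the genotypes.

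Several members are sex-biased in rodent liver, so other sex-biased genes were read beside them. All 12 libraries had reads on 4 genes of the Y chromosome. Of 9 female-biased genes tested, 2 rose and 1 fell in fasted FLD liver and 3 rose and 0 fell in refed FLD liver. Cyp2a4 had the largest fasted rise (log2 3.00, SE 0.66, adjusted p = 0.0101), and Cyp3a44 the largest refed rise (1.23). Of 15 male-biased genes, 2 fell in fasted FLD liver, Mup7 (log2 -2.73) and Cyp2u1 (-1.90), and 0 were altered in refed liver (limma, 5 at an unadjusted p under 0.05). Their summed level was 7297 RPKM in FLD fasted replicate 1 and 7747 RPKM in WT refed replicate 2, and it lay between 7522 and 30803 RPKM in the other 10 libraries.

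Markers of the liver's cell types were altered in few cases, and fewer cells of a type cannot be told apart from less RNA per cell in these tissue samples. In fasted FLD liver 1 of 10 hepatocyte markers fell (Apob), 0 of 10 Kupffer cell markers changed (limma, 0 at an unadjusted p under 0.05), 1 of 10 stellate cell markers rose (Col1a2), 1 of 8 endothelial cell markers rose (Lyve1) and 0 of 8 blood cell markers changed (limma, 0 at an unadjusted p under 0.05). In refed liver 0 markers of any of these types were altered between the genotypes by limma, with at most 4 of a type at an unadjusted p under 0.05. None of these markers was listed at 0 in any library. Summed levels ran from 109 to 999.7 RPKM for Kupffer cell, 82.8 to 337 RPKM for stellate cell, 27.5 to 78.4 RPKM for endothelial cell, 25.7 to 453 RPKM for cholangiocyte and 245 to 2019 RPKM for blood cell markers, and their part in the members' differences was not tested.

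Exon use was read from the deposited counts of skipped exon events, in which reads that include an exon are set against reads that skip it. In fasted liver 481 events of 35 members had at least 10 reads in every library, and 55 of them (11.4%) in 11 members were altered between the genotypes at an adjusted p under 0.05 (limma), beside 10.8% of all 69644 events. In refed liver 6 of 470 events (1.28%) were altered, in Gstp1 and Gstt2, beside 1.03% of all events. Events of 1 gene share exons and reads, so they are not separate observations. Of the 55 fasted calls 14, and of the 6 refed calls 0, had a mean of at least 5 reads of the rarer form. With almost no reads of the rarer form, the ratio follows the count of the commoner form, and so the gene's level. Such calls do not show altered exon use on their own.

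Each altered member is described by its altered event with the most reads of the rarer form. Among these events, the 3 exons with the most such reads match no annotated exon of their gene in GENCODE M21. Inclusion of a 204-base exon of Gstt3 (chr10:75775294-75775497) was 0.45%, 1.18% and 0.93% in fasted WT and 8.20%, 7.93% and 4.92% in fasted FLD liver (log2 3.16, SE 0.74, adjusted p = 0.0187). In refed liver it was 1.00%, 1.18% and 1.13% in WT and 1.76%, 1.22% and 1.51% in FLD (adjusted p = 0.81). An 88-base exon of Mgst1 (chr6:138149075-138149162) was included in 0.03%, 0.02% and 0.02% of WT and 0.51%, 0.54% and 0.33% of FLD transcripts in fasted liver (log2 4.29, SE 0.71, adjusted p = 0.00343), and in 0.02%, 0.03% and 0.01% against 0.09%, 0.05% and 0.08% in refed liver (adjusted p = 0.19). Both exons were used more in every fasted FLD library. A 163-base exon of Gsta3 (chr1:21264590-21264752) went the other way, at 0.69%, 0.41% and 0.33% in fasted WT and 0.04%, 0.05% and 0.02% in fasted FLD liver (log2 -3.53, SE 0.74, adjusted p = 0.0103), with overlap in refed liver. Whether these differences differ between fasted and refed liver was not tested.

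**Figure D5:**
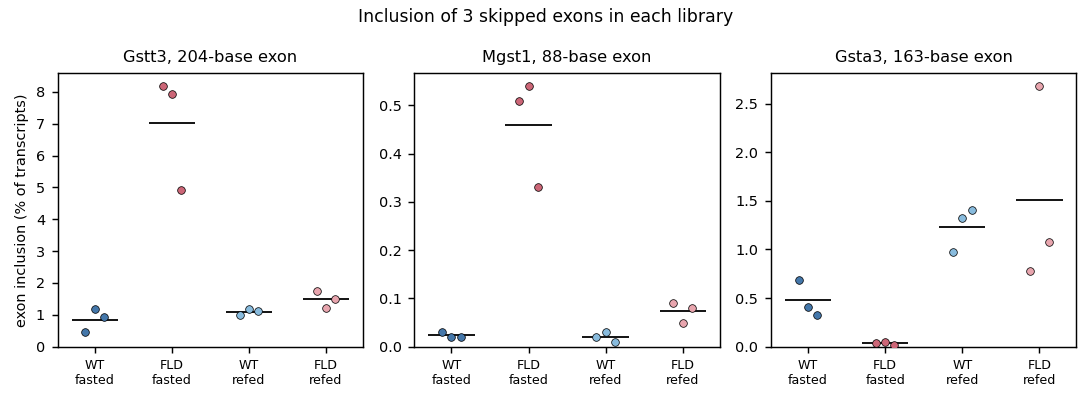
Inclusion in percent of transcripts (y axes, each from 0) of 1 exon each of Gstt3, Mgst1 and Gsta3 in each library, by group, with points for libraries and horizontal lines for group means; the order of points within a group does not identify the mouse. The fasted FLD libraries lie above fasted WT for Gstt3 (4.92% to 8.20%) and Mgst1 (0.33% to 0.54%) and below it for Gsta3 (0.02% to 0.05%).

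The Mgst1 call held in all 9 alternatives. The Gstt3 call was lost without list position 1 or 3 of fasted WT or position 1 or 2 of fasted FLD (adjusted p 0.0568 to 0.0855), and the Gsta3 call without position 1 of fasted WT (0.0537). The other fasted calls were in Gstk1, Gsto1, Gstt2, Sult2a8, Ugt2a3, Ugt2b1, Ugt2b37 and Ugt2b5, where the rarer form averaged between 0.333 and 12.8 reads in the event with most of them. Gstt2 held 17 and Sult2a8 15 of these calls. The Sult2a8 event had 0, 0 and 0 skipping reads in WT and 0, 2 and 1 in FLD. Its including reads numbered 7215, 17625 and 15567 in WT and 2558, 3204 and 3238 in FLD. The Ugt2b37 event had 0, 2 and 0 skipping reads in WT and 0, 0 and 0 in FLD. Its including reads numbered 11, 70 and 47 in WT and 555, 184 and 129 in FLD. Both genes were also altered in level, so these events cannot show a change in exon use. A Gstk1 exon (chr6:42249839-42249932) was skipped by 2, 2 and 3 reads in fasted WT and 33, 27 and 10 reads in fasted FLD liver, with inclusion above 97% throughout. A Gstt2 exon (chr10:75833644-75833734) was included at 100%, 98.07% and 100% in fasted WT and 74.59%, 71.96% and 98.33% in fasted FLD liver, with overlap. It had 0, 4 and 0 skipping reads in WT and 29, 18 and 1 in FLD (limma, log2 -4.37, SE 1.12, adjusted p = 0.0278). This call was lost in 4 of 9 alternatives. The refed calls in Gstp1 and Gstt2 rested on 3.5 and 1.5 reads of the rarer form on average.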

How the data were processed

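Liver RNA libraries of 12 mice were grouped by the labels into WT fasted, FLD fasted, WT refed and FLD refed, with 3 per group. The authors aligned 69-base paired reads to GRCm38 (Ensembl 84) with HISAT2 2.0.5, counted reads per gene with HTSeq 0.6.0 and deposited RPKM per gene, and the versions are from the submitters' processing notes. They also deposited inclusion and skipping read counts of skipped exon events made with rMATS, as lists of 3 libraries whose order is not given, and p-values and fold columns of their own, which were not used. The group of each list was checked against the deposited WT table (1523 of 1523 fasted and 1719 of 1719 refed shared events had equal counts).

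RPKM was tested as log2(RPKM + 1) with limma 3.58.1 in R 4.3.3, with a variance trend, in 1 fit of the 4 groups over 11507 genes, without a replicate block, since the expression file holds RPKM and not counts. A fold change on this scale understates the change of low genes. For events with 10 or more reads in every library, limma was run on inclusion over skipping (counts divided by length, 0.5 added, log2). P-values were Benjamini-Hochberg adjusted over all genes or events, and both scripts were tested on simulated data. With 3 against 3 libraries an exact permutation test cannot go below p = 0.1, so none was run. Values in every library are given for members altered in any comparison and for the highest of each family, and genes of other lists for the 3 largest calls.

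The members and the lists (genes around the supply and use of UDP-glucuronic acid, PAPS and glutathione, regulators, NRF2 targets, transporters, hydrolases, other conjugation enzymes, sex-biased genes, cell markers) were chosen with earlier results of these data known. Same-numbered deviations from the group means correlated at 0.162 to 0.297 in all 3 pairs of refed WT and FLD libraries. Those of fasted WT and refed FLD libraries, which differ in both genotype and feeding, correlated more, at 0.39 to 0.743. The check therefore cannot show that the numbers pair the mice, and the labels name no shared litter or day. The pairs of the other comparisons did not all pass 0.1 (-0.474 to -0.226 fasted, -0.016 to 0.251 within WT, -0.441 to -0.204 within FLD). Alternatives changed the pseudocount, the filter, the scaling, the libraries fitted and the event limits. The fit without both libraries that stood apart was added after the data were seen. Results of a few list genes are not reported here.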

Additional observations from a re-analysis of the deposited data

Results flagged for a closer look

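In 3 of the 288 exon events of members tested in both states (1.04%), every FLD library lay below every WT library in fasted liver and above every WT library in refed liver. Of all 36423 events tested in both states, 71 (0.195%) had this pattern and 181 (0.497%) were separate in opposite directions, either way round. The difference between the states was not tested. They were a Ugt2b5 exon at chr5:87131587-87131754 (fasted log2 fold change of inclusion -2.17, refed 1.61), a Ugt2b5 exon at chr5:87127152-87127346 (-1.81 and 1.03) and an Mgst1 exon at chr6:138153496-138153603 (-0.988 and 0.27). Inclusion was at most 1% of transcripts in each of these libraries.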

How the results depend on the processing

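The 20 member calls kept their direction in all alternatives, and 8 stayed past the threshold in all. The count of 12 altered members in fasted liver was 5 in the fit of the 6 fasted libraries and ran from 4 to 12 when 1 library was left out, lowest without WT fasted replicate 3 (4) and FLD fasted replicate 2 (7). The count of 6 in refed liver ran from 4 to 8. The 2 members raised by refeeding in FLD became 1 to 4, with 4 without WT fasted replicate 1 and 1 without FLD fasted replicate 2 or FLD refed replicate 2 or 3. The 0 altered by refeeding in WT became 1 with no filter, with a mean of at least 5 RPKM, and without FLD fasted replicate 1 (range 0 to 1), and the difference between responses stayed at 0 (range 0 to 0), for which the fit of 6 libraries gives no value. With the replicate block the counts were 8, 4, 0, 2 and 0 in the order fasted, refed, WT refeeding, FLD refeeding and the difference between responses, and among the refed calls those of Ugt2a3 and Ugt2b34 were lost, with no other refed call changed. In every comparison the labels give the samples only a shared number. Median-ratio rescaling moved the median of all genes from 0.19 to 0.00 for WT refeeding and from 0.25 to 0.06 for FLD refeeding.

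Of the 55 altered fasted events, 14 had a rarer form of at least 5 reads on average. When only such events were fitted and their p-values adjusted anew, 35 of 180 member events passed, beside 33.2% of all events so fitted. The count was 9 to 53 when 1 list position was left out (9 without position 3 of WT or 2 of FLD). The 6 refed events became 15 with 1 read added, and 0 to 0 with any position left out. The 13 events named by gene kept their direction, and 1 stayed past the threshold in all. No block could be fitted to the events, because list positions carry no replicate number, so that alternative was not run. The causes were not tested. Depth beyond relative values is not given by RPKM, and no counting interval is given.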
